A study of Mus musculus with 4 samples.

Results

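The Hedgehog pathway of the adult mouse ureter was described through its 9 core genes: the ligands Shh and Ihh, the receptor Ptch1, the decoy receptor Hhip, the transducer Smo, the inhibitor Sufu and the transcription factors Gli1, Gli2 and Gli3. All probe sets annotated with one of these symbols alone were taken, which gave 22 of 45037 tested probe sets and 9 of 18193 named genes. The tissue was ureter of adult male FVB/N mice (Theiler stage 28) that carried the SMGA/EGFP transgene, in which a fluorescent protein reports smooth muscle gamma actin (Actg2). Ureter between kidney and bladder was cut out by its EGFP signal, so each sample holds muscle, lining, connective tissue and vessels together. There were 4 samples, none pooled and 1 array each, and all belong to 1 group, so no contrast between conditions existed. The samples are called replicates 1 to 4 without any order, and whether each came from its own animal is not given in the sources used here, so p-values measure the spread between these samples, which may be technical.

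Hedgehog proteins are secreted signals. In cells that receive none, Ptch1 keeps Smo inactive, Sufu holds the Gli proteins, and Gli3 is trimmed into a repressor at the base of the primary cilium. When a ligand binds Ptch1, Smo becomes active, Gli proteins turn on targets, and Ptch1, Hhip and Gli1 are themselves among those targets in many tissues. In the developing mouse ureter the epithelium makes Shh and the surrounding mesenchyme receives it, which maintains the cells that become smooth muscle.

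Array intensities on a linear scale, as deposited by the authors, were converted to levels of log2(intensity + 16). The pseudocount of 16 draws dim values together. Each array had its own background threshold, the 95th percentile of 84 probe sets for odour, pheromone and taste receptors, at 7.25, 6.99, 7.57 and 7.36 in replicates 1 to 4. A probe set was called above background when its mean exceeded these thresholds in limma's moderated test (one-sided) at an adjusted p under 0.05, by Benjamini-Hochberg across all 45037 probe sets. A gene was called if any of its probe sets was, and the probe set of highest mean gives its level. Levels of different probe sets are not on 1 scale and are not compared here.

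Markers of the labelled tissue were present, with 15 of 17 urothelial genes and 11 of 12 smooth muscle genes above background. Actg2, the reporter's gene, had a level of 11.91 ± 0.96 (SD, n = 4), and the uroplakin gene Upk1b had 15.01 ± 0.56 (SD, n = 4). Genes known from other organs differed widely between the samples. Over the 12 skeletal muscle genes the summed intensity was 247104 in replicate 3 against 1111 to 1200 in the others. Over the 9 liver genes it was 89377 in replicate 1 and 20064 in replicate 3, against 702.2 and 780.7 in replicates 2 and 4. Over the 7 male reproductive tract genes it was 7220, 69804, 123025 and 836.5 in replicates 1 to 4. The sum in replicate 3 does not stand for the whole list, as 2 of the 7 genes were highest there and 5 in replicate 2. Each gene was also compared with its mean over the other samples. The median difference was 0.81, 5.80, -3.11 and -3.64 log2 units in replicates 1 to 4. The threshold was passed by 6, 6, 3 and 2 of the 7 genes, in the same order. The ratio of 3' to 5' signal, a measure of RNA integrity and amplification, was 18.77 to 36.94 for Gapdh and 4.426 to 19.8 for Actb, lowest in replicate 4 for both. These ratios limit probe sets that lie far from the 3' end of a transcript.

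The adult ureter expressed a ligand, the receptor, the transducer, the inhibitor and 1 of the Gli factors. Shh, Ptch1, Smo, Sufu and Gli3 were above background, which is 5 of 9 genes, and Ihh, Hhip, Gli1 and Gli2 were not called. Of the 22 probe sets 7 were called, against 40.9% of all probe sets. Among all named genes 57.8% were called, so the share of called Hedgehog genes (55.6%) was near that of genes in general. The median distance from the threshold was 1.88 log2 units for the Hedgehog genes and 1.88 for all named genes. By a count without a test, 6 of the 9 genes lay over the threshold in all 4 samples, the 5 called genes and Ihh, against 58.4% of named genes. The same 6 genes had a mean over the threshold, as did 66.4% of named genes. The 5 calls were also made in every alternative processing that was tried, the omission of each replicate included.

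Shh, the ligand made by the lining of the embryonic ureter, had a bright signal in every sample. Its probe set 1436869_at had intensities of 55475, 60628, 66860 and 44834 in replicates 1 to 4. The highest intensity was 1.49 times the lowest, and no sample stood apart. The level was 15.78 ± 0.25 (SD, n = 4), 8.49 log2 units above the thresholds (limma adjusted p = 1.09e-08). The other Shh probe set, 1427571_at, gave intensities of 10.14, 12.14, 57.77 and 37.79 and lay under the threshold on every array. The call of Shh therefore rests on 1 of its 2 probe sets.

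Ihh, the Hedgehog ligand best known from cartilage and gut, was at the edge of detection. Its only probe set had levels of 7.83, 7.07, 8.33 and 7.96 in replicates 1 to 4, each over the array's threshold, but by 0.51 log2 units on average (limma adjusted p = 0.149). The gene lay over the threshold in 4 of 4 samples without passing the test, and its adjusted p ranged between 0.112 and 1 over the alternatives.

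Ptch1, the receptor and a target of the pathway in many tissues, was expressed in all 4 samples. Its probe set 1428853_at had intensities of 8732, 8438, 6350 and 11520 in replicates 1 to 4. Replicate 3 was lowest and replicate 4 highest, 1.81 times apart. The level was 13.07 ± 0.35 (SD, n = 4), 5.77 log2 units above the thresholds (limma adjusted p = 1.02e-07). Its 2 other probe sets, 1439663_at at 6.50 ± 0.21 and 1450824_at at 5.94 ± 0.73 (SD, n = 4 each), lay under the threshold in every sample.

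Hhip, a membrane protein that binds Hedgehog ligands and so limits their range, was not called by any of its 4 probe sets. The one with the highest mean, 1455277_at, had levels of 5.56, 7.64, 7.68 and 6.79 in replicates 1 to 4, over the threshold in replicates 2 and 3. A second, 1438083_at, had 4.35, 7.41, 6.20 and 7.21 and passed the threshold in replicate 2 alone. Both probe sets were lowest in replicate 1. The other pair averaged 5.26 ± 0.91 and 4.58 ± 0.37 (SD, n = 4 each) and passed it in no sample.

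Smo, the membrane protein that carries the signal into the cell, was called through 2 of 3 probe sets. The probe set 1427049_s_at, whose suffix marks possible matches to several transcripts, had intensities of 6062, 4912, 4458 and 3677 in replicates 1 to 4. The probe set 1427048_at had 1821, 2031, 1173 and 2239. The 2 probe sets ordered the samples differently: replicate 4 was lowest by the first and highest by the second. Their levels were 12.20 ± 0.30 and 10.80 ± 0.41 (SD, n = 4 each), with limma adjusted p-values of 2.49e-07 and 5.21e-06. The remaining probe set, 1442215_at, had levels of 4.19, 4.38, 4.25 and 6.57 and lay under the threshold in every sample.

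Sufu, which binds Gli proteins and holds them in the cytoplasm, was called through 1 of 3 probe sets. The probe set 1450024_at had intensities of 1855, 2884, 1946 and 2371 in replicates 1 to 4, 1.55 times apart at most. Its level was 11.13 ± 0.29 (SD, n = 4), 3.84 log2 units above the thresholds (limma adjusted p = 1.64e-06). Of the others, 1431713_at had levels of 7.36, 8.02, 8.46 and 6.50, over the threshold in replicates 1, 2 and 3, and did not pass the test (limma adjusted p = 0.510). The third, 1420848_at, stayed under it at 5.89 ± 0.71 (SD, n = 4).

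Gli3, the Gli factor that mainly acts as a repressor when no ligand is present, was the only Gli gene called. Its probe set 1455154_at had intensities of 960.4, 719.9, 219.5 and 640.5 in replicates 1 to 4. A second, 1456067_at, had 701.7, 243.7, 383.7 and 812.8. The lowest sample was replicate 3 by the first and replicate 2 by the second. Their levels were 9.17 ± 0.90 and 8.96 ± 0.77 (SD, n = 4 each), 1.88 and 1.67 log2 units above the thresholds, with limma adjusted p-values of 0.00303 and 0.00171. The third probe set, 1450525_at, was under the threshold in every sample at 5.35 ± 0.57 (SD, n = 4). The call held in all 13 tested settings, with a highest adjusted p of 0.0329.

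Gli1, an activator that is itself a target of the pathway, was measured by 1 probe set, which was not called. Its levels were 4.38, 7.23, 8.02 and 6.74 in replicates 1 to 4, over the threshold in replicates 2 and 3 and far under it in replicate 1. The mean of 6.59 ± 1.56 (SD, n = 4) lay 0.70 log2 units under the thresholds (a distance of -0.70, limma adjusted p = 1). Gli2, the main activator downstream of Smo in the mouse embryo, was not called by either of its 2 probe sets. The probe set 1459211_at had levels of 8.63, 4.59, 8.50 and 7.09, over the threshold in replicates 1 and 3. The other, 1446086_s_at, had 6.92, 4.36, 5.26 and 5.17 and passed it in no sample. Both Gli2 probe sets were highest in replicate 1 and lowest in replicate 2, with limma adjusted p-values of 1 and 1. A gene without a call may still be expressed, in few cells or at a level these probe sets do not register.

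**Figure D1:**
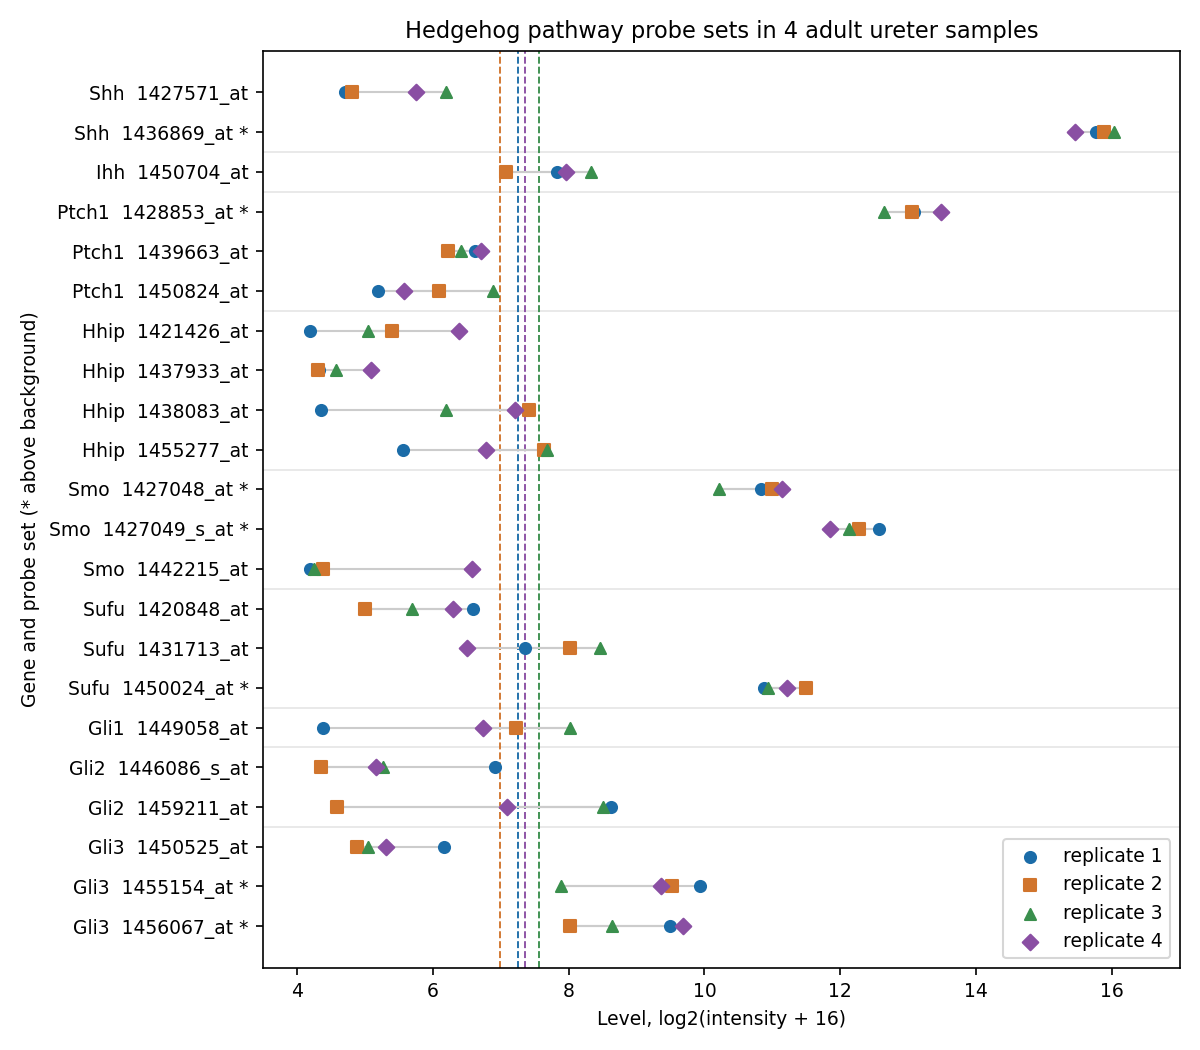
Levels, log2(intensity + 16), of the 22 Hedgehog probe sets in the 4 ureter samples. Points are single samples, dashed lines are the background thresholds of the arrays in the same colours, and an asterisk marks the 7 probe sets above background, which include 1 of 2 for Shh and 2 of 3 for Smo and for Gli3.

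Probe sets of 1 gene were often on both sides of the call. This was so for 5 of the 7 Hedgehog genes with several probe sets, and for 51.7% of all 9010 named genes with several. In Hhip and Gli2 no probe set was called.

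The SD between samples of the 5 called genes lay between 0.25 log2 units for Shh and 0.90 for Gli3, by the probe set of highest mean. Over all 9 Hedgehog genes the median SD was 0.53 log2 units, and over all named genes it was 0.50. A test of spread set each probe set's variance over the samples against limma's prior variance for probe sets of like level (F test, Benjamini-Hochberg over the 18414 probe sets above background). It called 0% of them, with a lowest adjusted p of 0.0645 on the array, so that it does not show whether the Hedgehog genes differed between samples. For the 7 called Hedgehog probe sets the unadjusted p-values were 0.206 to 0.765 and the adjusted p was 0.996, and 1156 probe sets on the array (6.28%) had an unadjusted p under 0.05. Ihh, Hhip, Gli1 and Gli2 were not above background and were not tested for spread.

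In replicate 3, where connective tissue and vessel genes were low, the Hedgehog genes lay on both sides of the other samples. Of the 9 genes 5 were higher there than the mean of the other 3 samples, with a median difference of 0.33. Of all 10522 called genes 4986 were higher there, with a median difference of -0.05. Shh, Ihh, Hhip and Gli1 were highest in replicate 3, and Ptch1 and Gli3 were lowest. Replicate 3 lay 0.58 log2 units under the mean of the other 3 samples for Ptch1 (a difference of -0.58). For Gli3 the difference was -1.72 by the probe set with the highest mean and -0.42 by the second. For Smo it was -0.10 by the probe set with the highest mean and -0.78 by the second, and for Sufu it was -0.26. For Gli1 it was 1.90, for Gli2 1.73, for Hhip 1.02 and for Ihh 0.71, all on dim probe sets that were not called. Shh had a difference of 0.33, which shrank to 0.07 after quantile normalization. Under that scaling 5 of 9 genes were again higher, with a median of 0.07, and Gli1 alone was highest in replicate 3. By the probe sets of highest mean, the differences of Ptch1, Gli3, Smo and Sufu kept their sign under that scaling and with pseudocounts of 1 and 64, as did that of Shh. Choosing replicate 3 followed a look at the marker genes, and none of these differences was tested beyond the test of spread.

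The marker lists moved in different directions in the same sample. All 10 fibroblast and matrix genes were lowest in replicate 3, with a median difference of -2.14 and a summed intensity of 22667 against 90897 to 129244 in the others. Of 9 endothelial genes 8 were lowest there, with a median difference of -1.90. Of 17 urothelial genes 13 were higher in replicate 3 than the mean of the others, with a median difference of 0.42 and a summed intensity of 560821 against 376528 to 428462. After quantile normalization 10 of 17 were higher, with a median of 0.30. Of 12 smooth muscle genes 7 were higher there, with a median difference of 0.19, and after quantile normalization 6 were, with 0.08. Smooth muscle genes differed more in other samples. All 12 were highest in replicate 2, with a median difference of 1.15, and 10 were lowest in replicate 1, with -1.09. In replicate 3 the median difference was 6.85 for skeletal muscle genes and 1.54 for liver genes. Over all 10522 called genes the median difference was -0.05, and 34.3% of them were lowest and 27.6% highest in replicate 3. In whole tissue, fewer cells of a type and less RNA per cell cannot be told apart, and the part of these markers in the Hedgehog values was not tested.

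**Figure D2:**
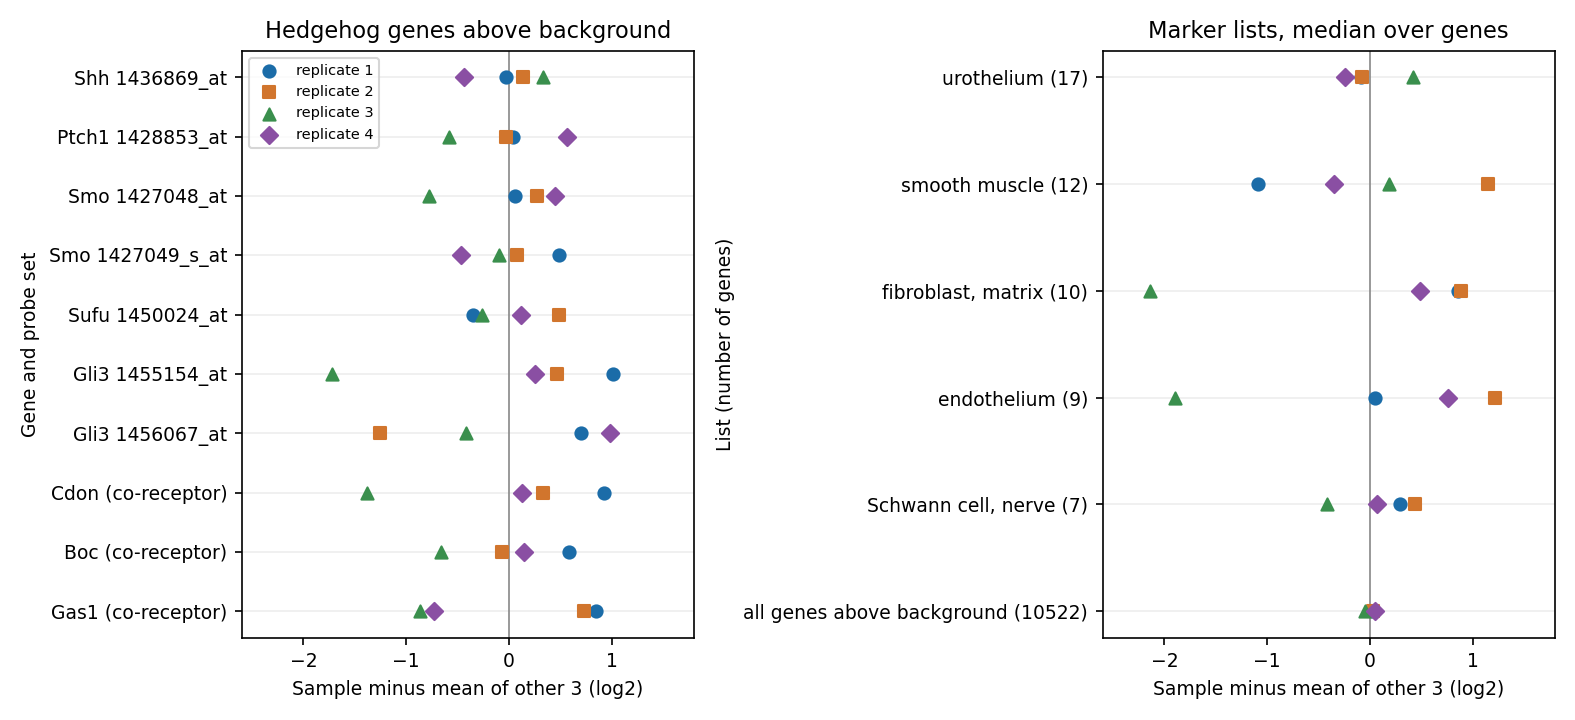
Level of each sample minus the mean of the other 3 samples, in log2 units, for the 7 called Hedgehog probe sets and 3 co-receptor genes (left) and as the median over each marker list (right). Points are single samples, and replicate 3 lies at -1.72 for the first Gli3 probe set, at 0.33 for Shh, at -2.14 for fibroblast genes and at 0.42 for urothelial genes.

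Beyond the core genes, 49 of 52 listed genes that release, receive, relay or answer the signal were measured, and 34 of them (69.4%, against 57.8% of named genes) were above background. Of the 49 genes 27 were lowest in replicate 3 and 6 highest, against 34.3% and 27.6% of all called genes. Their median difference there was -0.48, which was not tested, and the 49 include 15 genes that were not called. In the ligand release list, which also holds the ligand Dhh, 1 of 7 genes was called (14.3%). Disp1, the transporter that lets lipid-bearing Hedgehog proteins leave the cell, was called at 8.49 ± 0.54 (SD, n = 4; limma adjusted p = 0.0117). That call was lost without replicate 2 (limma adjusted p = 0.0562), without replicate 4 (0.0504) and with the higher thresholds of the 99th percentile (0.111) or the median plus 3 median absolute deviations (0.505). Hhat, the enzyme that adds palmitate to Hedgehog proteins, was not called at 7.29 ± 0.42 (SD, n = 4), with 7.89, 6.96, 7.22 and 7.08 in replicates 1 to 4. Dhh, the third mammalian ligand and a product of Schwann cells, had 7.12, 8.70, 7.36 and 4.91 and was not called. Of the 7 Schwann cell and nerve genes 4 were called (57.1%, against 57.8% of named genes). Mbp, a myelin gene, was among them at 12.51 ± 0.48, while Sox10, a transcription factor of these cells, was not called at 7.71 ± 1.26 (SD, n = 4 each). Of the rest of this list, named after their values were seen, Pmp22, Erbb3 and Gfra3 were called, and S100b and Ngfr were not.

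Scube2, a secreted protein that helps release the ligand, had a level of 12.22 in replicate 3, against 4.56, 5.19 and 4.60 in replicates 1, 2 and 4. It was not called over the mean of the 4 samples. All 12 skeletal muscle genes, 10 of 17 urothelial genes and 2 of 7 male reproductive tract genes were also highest in replicate 3. Of all 10522 called genes 27.6% were highest there, near the share of the male reproductive tract genes. The urothelial genes Upk3a and Krt20, named after their values were seen, had 14.91 and 11.69 in replicate 3 and lay under the threshold in the other samples. The other 15 urothelial genes were over the threshold in all 4 samples. Msmb and Pbsn of the male reproductive tract list, also named after their values were seen, had 16.27 and 15.41 in replicate 3. In the other samples they had 4.76 to 7.43 and 8.80 to 9.42. The part of any of these tissues in the Scube2 value was not tested.

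Genes listed as co-receptors or other binders of the ligand at the cell surface were called in 3 of 5 cases (60%), near the 57.8% of all named genes. The 3 called genes were Cdon, Boc and Gas1, the co-receptors that present ligand to Ptch1. Cdon had levels of 11.69, 11.24, 9.95 and 11.09 in replicates 1 to 4 (limma adjusted p = 1.71e-05). Boc, which resembles Cdon, had 10.25, 9.76, 9.32 and 9.92 (limma adjusted p = 4.81e-05). Gas1, anchored to the membrane by a lipid, had 11.69, 11.60, 10.41 and 10.51 (limma adjusted p = 1.33e-05). All 3 were lowest in replicate 3, with differences of -1.38, -0.66 and -0.86 log2 units from the mean of the other 3 samples. For Gas1 replicate 4 was nearly as low, with a difference of -0.73. Lrp2, a large endocytic receptor, was not called at 6.74 ± 0.50 (SD, n = 4), and neither was Gpc3, a glypican that can bind the ligand, named after its values were seen, at 7.13 ± 1.33 (SD, n = 4).

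Genes of the primary cilium, where Smo and the Gli proteins meet, were called in 9 of 11 cases (81.8%, against 57.8% of named genes). Ift88, a carrier protein of the cilium without which mouse cells cannot respond to Hedgehog, had 11.18 ± 0.57, and Gpr161, a ciliary receptor that restrains the pathway, had 9.24 ± 0.58 (SD, n = 4 each). Kif7, the kinesin that acts on Gli proteins at the cilium tip, was not called, with 7.67, 7.76, 4.93 and 8.14 in replicates 1 to 4. Its values were over the threshold in every sample but replicate 3. Evc, a partner of Smo at the cilium base, was not called at 7.58 ± 0.69 (SD, n = 4).

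Genes listed for the processing of Gli proteins, kinases and degradation factors among them, were called in 14 of 15 cases (93.3%, against 57.8% of named genes). All of them have roles outside the pathway too. Prkaca, a catalytic subunit of protein kinase A, had 12.93 ± 0.53 by a probe set that may match several transcripts, and Gsk3b, a second kinase of Gli3, had 12.28 ± 0.60 (SD, n = 4 each). Csnk1a1, a casein kinase, had 15.56 ± 0.31, and Spop, which marks Gli proteins for destruction, had 13.84 ± 0.27 (SD, n = 4 each). The gene not called, named after its values were seen, was Stk36 at 5.92 ± 0.47 (SD, n = 4), a kinase related to fly fused.

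Genes that answer Hedgehog signals in the developing ureter or elsewhere were called in 7 of 11 cases (63.6%). That share was near the 57.8% of all named genes. Foxf1, a forkhead factor of the ureteric mesenchyme, had a level of 8.21 ± 0.30 (SD, n = 4), between 7.91 in replicate 1 and 8.55 in replicate 2, and was called by a small margin (limma adjusted p = 0.0224). The call was lost without replicate 2 (limma adjusted p = 0.0904) and with the thresholds of the 99th percentile (0.341) or the median plus 3 median absolute deviations (1). Foxf2, its paralogue, had 8.88, 10.28, 7.73 and 9.45 in replicates 1 to 4 (limma adjusted p = 0.00756, and 0.0578 with the last of these thresholds). Bmp4, a growth factor made by the mesenchyme around the ureteric epithelium, had 9.47, 9.43, 8.69 and 9.50 (limma adjusted p = 0.000338). Both Foxf2 and Bmp4 were lowest in replicate 3, and Foxf1 was lowest in replicate 1. Ccnd1, a cyclin of the G1 phase driven by many pathways, had 13.90 ± 0.30 (SD, n = 4).

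**Figure D3:**
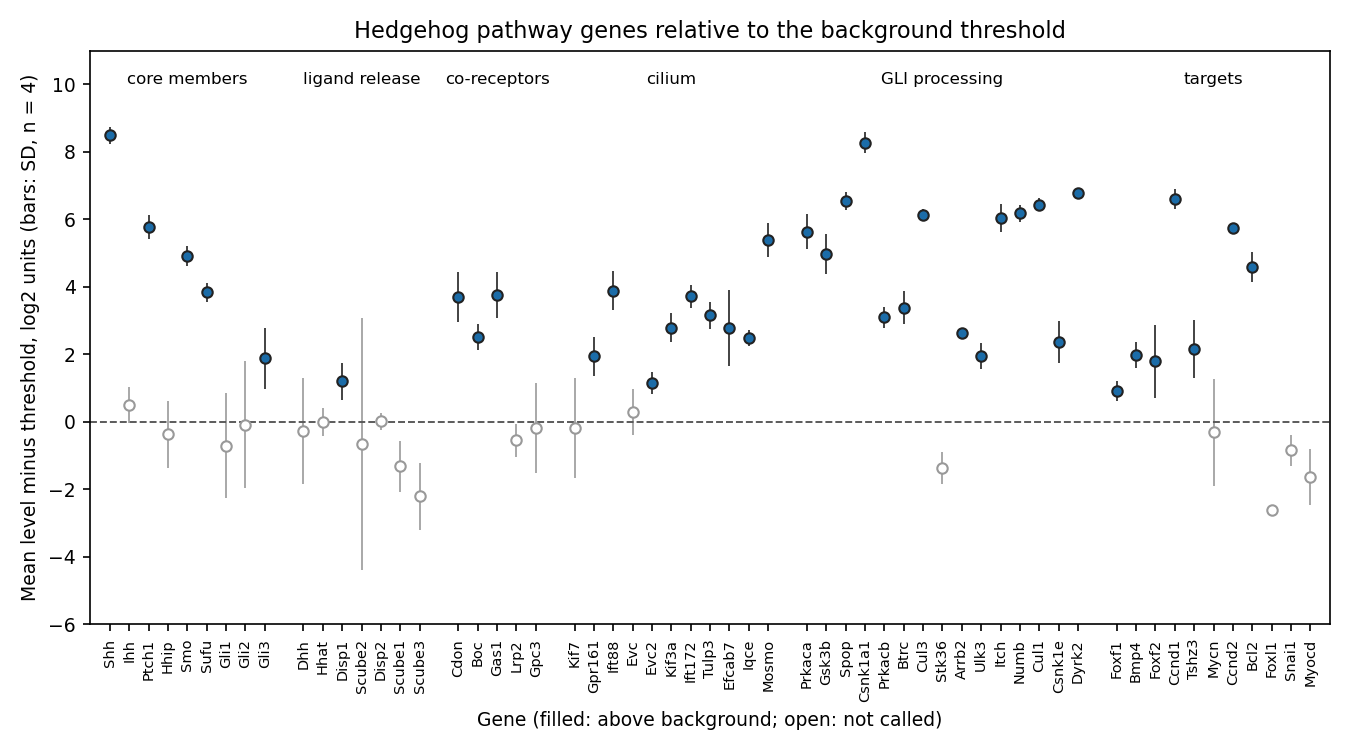
Mean level minus the array thresholds, in log2 units, for the 9 core genes and 49 other genes of the pathway, in the order in which each list was written. Filled points are genes above background, open points are genes that were not called, and bars are the SD of the level over 4 samples. In the GLI processing list 14 of 15 points are filled and in the ligand release list 1 of 7, and heights of different genes are not on 1 scale.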

How the data were processed

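Intensity per probe set on a linear scale was deposited by the authors for 4 arrays. GCOS is named in the submitters' processing notes, without a version, and its algorithm is not given in the sources used here. Per the labels' protocols, RNA went through 2 rounds of amplification before biotin labelling. Intensities had a 2% trimmed mean of 1500 in each sample and were used as scaled. The 64 control probe sets were left out. Symbols came from the platform annotation. It gives 1 symbol for 34945 of 45037 probe sets, several for 932 and none for 9160, and the gene identifiers of all 22 Hedgehog probe sets matched the same symbol in RefSeq (GRCm38.p6). Coordinates are not given because the arrays name no genome build.

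The fits used R 4.3.3 and limma 3.58.1 with a trended, robust prior, and were tested on simulated data. Of the 84 chemosensory probe sets 0 were called. The thresholds were taken from these same probe sets, so this does not measure the rate of false calls. The spread test had 3 and 5.25 degrees of freedom. Alternatives were other pseudocounts, quantile normalization, other thresholds, filters and probe set rules, and each replicate left out. The members and lists were chosen with earlier results of these data known. By the rule for names, all 9 core genes, the first 4 measured genes of 5 pathway lists and the first 2 of each marker list could be named. The number of arrays limits precision.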

Additional observations from a re-analysis of the deposited data

Results flagged for a closer look

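In 5 of 58 probe sets examined, 1 sample stood apart from the other 3 by Dixon's ratio, its gap to the nearest sample over the whole range, above the 95% critical value for 4 samples. Chance alone gives about 1 in 20 for probe sets chosen without sight of the data. The lists were chosen with earlier results of these data known, so the count of 5 cannot be set against that share. For Smo, the probe set 1442215_at was highest in replicate 4 at 6.57, against 4.19 to 4.38 in the others (ratio 0.920), with every value under the threshold. For Scube2 replicate 3 had 12.22 against 4.56 to 5.19 (ratio 0.918). For Kif7 replicate 3 had 4.93 against 7.67 to 8.14 (ratio 0.853). For Bmp4 replicate 3 had 8.69 against 9.43 to 9.50 (ratio 0.911). For Myh4, a skeletal muscle myosin gene, replicate 3 had 16.39 against 4.14 to 4.52 (ratio 0.969). Thus 4 of the 5 ratios belong to replicate 3.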

How the results depend on the processing

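The count of called Hedgehog genes was 5 in every setting with a test, and 6 when a mean over the threshold sufficed, which added Ihh. The count of other pathway genes was 34 and lay between 30 and 36, and that of all named genes was 10522 and lay between 8813 and 12083. None of the 5 called Hedgehog genes passed the spread test in the settings in which it was run. In the main setting 0 of 18414 probe sets passed it, so the test cannot tell these genes from others. Distances from the threshold changed side for genes that were never called by a test. Ihh fell to -0.02 with the 99th percentile as background and to -0.33 with the median plus 3 median absolute deviations, against 0.51. Gli2 moved to 0.11 with a pseudocount of 64, against -0.09. With single replicates left out, Gli2 ranged between -0.58 (without replicate 1) and 0.68 (without replicate 2). Hhip ranged between -0.71 (without replicate 2) and 0.06 (without replicate 1), against -0.37, and Gli1 between -1.08 (without replicate 3) and 0.02 (without replicate 1), against -0.70. Apart from the samples left out, the cause was not tested. The difference of replicate 3 for Shh was 0.07 after quantile normalization, an alternative added after the data were seen. That scaling moved the median of all probe sets by 0.11, 0.20, -0.25 and -0.05 in replicates 1 to 4. No paired analysis was possible because there is 1 group. Signals near background, as for Ihh, Hhip, Gli1 and Gli2, cannot be told from absence.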

Other observations

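Other genes of the pathway lists, named after their values were seen, add detail. Tshz3, a zinc finger factor that acts in smooth muscle formation of the mouse ureter, was called, with levels of 10.57, 9.47, 8.46 and 9.30 in replicates 1 to 4 (limma adjusted p = 0.00102). It was highest in replicate 1 and lowest in replicate 3. Mycn, a growth regulator, was not called and had 8.07 and 8.59 in replicates 1 and 4, over the threshold, with 5.29 in replicate 3 and a value also under the threshold in replicate 2. Myocd, a coactivator of smooth muscle genes, and Foxl1, a forkhead factor of gut mesenchyme, were not called at 5.65 ± 0.83 and 4.70 ± 0.13 (SD, n = 4 each). Among cilium genes, Efcab7, which anchors the Evc complex, was called and had 10.55, 10.73, 8.41 and 10.63, lowest in replicate 3. Mosmo, which lowers the amount of Smo at the cell surface, was called at 12.69 ± 0.50 (SD, n = 4).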
